A study of Mus musculus with 12 samples.

Results

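The levels of 10 genes that Wnt signalling is known to switch on around the central veins of the liver were followed across diets and a drug treatment in mouse liver RNA. The genes were taken by symbol: Glul, Oat, Slc1a2, Rhbg, Axin2, Lgr5, Rnf43, Znrf3, Tbx3 and Lect2. All 10 were found among the 24787 gene symbols of the deposited read counts, and all 10 were among the 14172 genes with enough counts to be tested. C57Bl/6 mice were kept on a normal diet (ND, 4 samples) or a high-fat diet, and after 2 months the high-fat mice were randomised to daily intraperitoneal vehicle (HFD, 4 samples) or MEC1 at 0.5 mg/kg (HFD+MEC1, 4 samples). MEC1 is known here only by its code name. The labels do not give sex, age or the length of dosing, and they do not say whether the ND mice were injected. They also do not say that each sample is a separate mouse, so every p-value measures the spread between these samples, which may be technical in part.

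The liver lobule is a small unit in which blood flows from portal veins to a central vein, and hepatocytes carry different tasks along that path. Endothelial cells of the central vein secrete Wnt ligands and R-spondins, which stabilise beta-catenin in the hepatocytes next to it. Beta-catenin then acts with TCF/LEF factors on genes such as Glul, which marks a thin ring of cells at the central vein, while periportal genes for urea synthesis are kept low there. Several of the same targets, among them Axin2, Rnf43 and Znrf3, encode proteins that dampen the pathway, so that it limits itself. Whole-liver RNA carries no position, so the zone in which a gene was expressed was not observed here.

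Library totals ran from 39916405 to 51340317 counts. The tissue label was checked against hepatocyte markers, of which 7 of 8 listed genes were in the table, with a summed level between 95759.8 and 121194 CPM (counts per 1e6 library counts, scaled by TMM) in each of the 12 libraries. The central vein endothelial markers (Wnt2, Wnt9b, Rspo3, Kit, Selp and Vwf) summed to 25.2 to 35.7 CPM in ND, 31.4 to 36.7 in HFD and 31.2 to 37.2 in HFD+MEC1. Cholangiocyte markers summed to 60.8 to 90.9 CPM in ND, 39.9 to 59.7 in HFD and 36.9 to 90.1 in HFD+MEC1, a sum carried mostly by Spp1. The median of the 6 markers against the ND mean (log2) lay between -0.37 and 0.40 in the ND libraries, -0.50 and -0.10 in HFD and -1.02 and -0.43 in HFD+MEC1, and 1 of the 6, Epcam, was called lower in HFD+MEC1 than in ND (-1.59 in log2, edgeR, adjusted p = 0.0148). The 10 sinusoidal endothelial markers were all higher in HFD+MEC1 than in ND (median 0.24), and 1 of them, Clec4g, was called (edgeR, adjusted p = 0.0306). By library their median from the ND mean (log2) was -0.42 in ND 1, against 0.03, 0.13 and 0.22 in ND 2 to 4. It was 0.24 to 0.35 in HFD+MEC1, so the low ND 1 carried much of the gap. The 8 Kupffer and macrophage markers were all higher than in ND, both in HFD (median 0.27) and in HFD+MEC1 (median 0.42), and 0 were called. By library their median from the ND mean was 0.03, -0.07, 0.58 and 0.62 in HFD 1 to 4. It was 0.19 to 0.59 in HFD+MEC1 and -0.33 to 0.29 in ND, with ND 1 the lowest. The 3 proliferating cell markers, all at low levels, summed to 3.38 to 7.23 CPM in ND, 6.15 to 8.20 in HFD and 1.93 to 5.40 in HFD+MEC1. All 3 were lower in HFD+MEC1 than in HFD (median -1.12). Of these, 0 were called and 2 had an unadjusted p under 0.05 in edgeR, where 14.8% of all tested genes did. The part of these marker shifts in the results was not tested. In bulk RNA, fewer cells of a type and less RNA per cell cannot be told apart, which holds for every level below. The library HFD+MEC1 3 stood apart in acute phase genes, with a median over 16 of them that was 1.72 (log2) above the ND mean, against -0.79, 0.48 and 0.35 in HFD+MEC1 1, 2 and 4. All 16 were lower in HFD than in ND (median -0.54) and higher in HFD+MEC1 than in HFD (median 1.15), comparisons that share the HFD libraries. In each of the 2 comparisons edgeR called 0 of the 16 and DESeq2 called 1. In fits that left out 1 library, edgeR called 0 to 1 of them in HFD against ND and 0 to 6 in HFD+MEC1 against HFD. In HFD+MEC1 against HFD, 11 had an unadjusted p under 0.05, where 14.8% of all tested genes did. The part of these shifts in the results was not tested.

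The stretch of DNA just upstream of a start site is shown for Glul, Oat, Slc1a2 and Lect2, because the levels of these 4 genes were correlated from library to library in 4 pairs that passed a test described with the correlations. Each run holds the 250 bases before the RefSeq start on GRCm38.p6, the assembly that mm10 names, written 5′ to 3′ on the gene's strand. Capitals mark a match to a TCF/LEF motif, searched on both strands as CTTTGAA with its variant CTTTGAT, and as CTTTGTA with its variant CTTTGTT. The Slc1a2 start used by the table lies inside the annotated gene, downstream of its first exon.
Glul, chr1:153899679-153899928, plus strand: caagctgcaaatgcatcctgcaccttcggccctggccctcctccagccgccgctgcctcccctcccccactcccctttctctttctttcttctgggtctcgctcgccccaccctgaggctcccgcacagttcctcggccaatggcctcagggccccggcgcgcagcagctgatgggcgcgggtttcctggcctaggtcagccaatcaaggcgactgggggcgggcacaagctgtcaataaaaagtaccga
Oat, chr7:132576399-132576648, minus strand: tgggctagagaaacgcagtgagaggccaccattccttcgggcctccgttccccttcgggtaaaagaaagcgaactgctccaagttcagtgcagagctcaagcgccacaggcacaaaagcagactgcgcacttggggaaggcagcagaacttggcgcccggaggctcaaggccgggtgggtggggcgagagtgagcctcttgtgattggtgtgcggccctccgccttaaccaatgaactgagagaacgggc
Slc1a2, chr2:102706188-102706437, plus strand: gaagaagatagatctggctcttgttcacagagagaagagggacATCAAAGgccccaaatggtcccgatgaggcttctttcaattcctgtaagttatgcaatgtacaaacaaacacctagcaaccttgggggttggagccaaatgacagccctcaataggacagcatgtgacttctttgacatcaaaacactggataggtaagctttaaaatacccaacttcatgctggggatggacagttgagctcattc
Lect2, chr13:56548539-56548788, minus strand: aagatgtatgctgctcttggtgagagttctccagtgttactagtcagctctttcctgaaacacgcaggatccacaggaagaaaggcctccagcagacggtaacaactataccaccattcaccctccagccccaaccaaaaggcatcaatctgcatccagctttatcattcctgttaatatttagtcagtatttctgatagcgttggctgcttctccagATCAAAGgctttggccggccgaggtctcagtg

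The search window was 300 bases, from 250 before to 50 after the start. The Lect2 window held ATCAAAG, the reverse complement of CTTTGAT, beginning at position -32 from the start, and the Slc1a2 window held the same letters beginning at position -207. The windows of Glul, Oat, Axin2 and both starts of Rnf43 held no match, which says only that these letters were not in these windows. RefSeq promoter windows were matched for 6 of the 10 genes. Of all 32851 windows of this length, 5544 (16.9%) held at least 1 match, so a match in 2 of 7 windows is a description and not a site.

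Levels between genes were compared per length, as the deposited RPKM (reads scaled by gene length and library size). In ND the order was Oat (205 ± 72.7, SD, n = 4), Glul (160 ± 49.3), Lect2 (54.8 ± 7.83), Slc1a2 (5.26 ± 1.79), Tbx3 (3.23 ± 1.37), Rnf43 (2.85 ± 0.26), Rhbg (2.25 ± 1.26), Axin2 (1.06 ± 0.24), Lgr5 (1.04 ± 0.42) and Znrf3 (0.631 ± 0.131). The ranges of Glul and Lect2, and of Lect2 and Slc1a2, did not overlap, so that the genes fell into a high set of 3 and a low set of 7. Every other pair of neighbours in the ND order overlapped. In HFD and in HFD+MEC1, Glul stood first at 300.4 ± 92.5 and 204 ± 48.5 RPKM and Oat came next at 236 ± 88.1 and 166 ± 40.1 RPKM, with overlapping ranges. Lect2 and then Slc1a2 followed them in all 3 groups. Rhbg moved most in the order, from above Tbx3, Rnf43, Lgr5 and Axin2 in HFD (2.91 ± 1.59 RPKM) to below Tbx3, Rnf43 and Lgr5 in HFD+MEC1 (1.26 ± 0.288 RPKM), though its range overlapped that of Tbx3 in HFD and that of Lgr5 in HFD+MEC1.

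**Figure D1:**
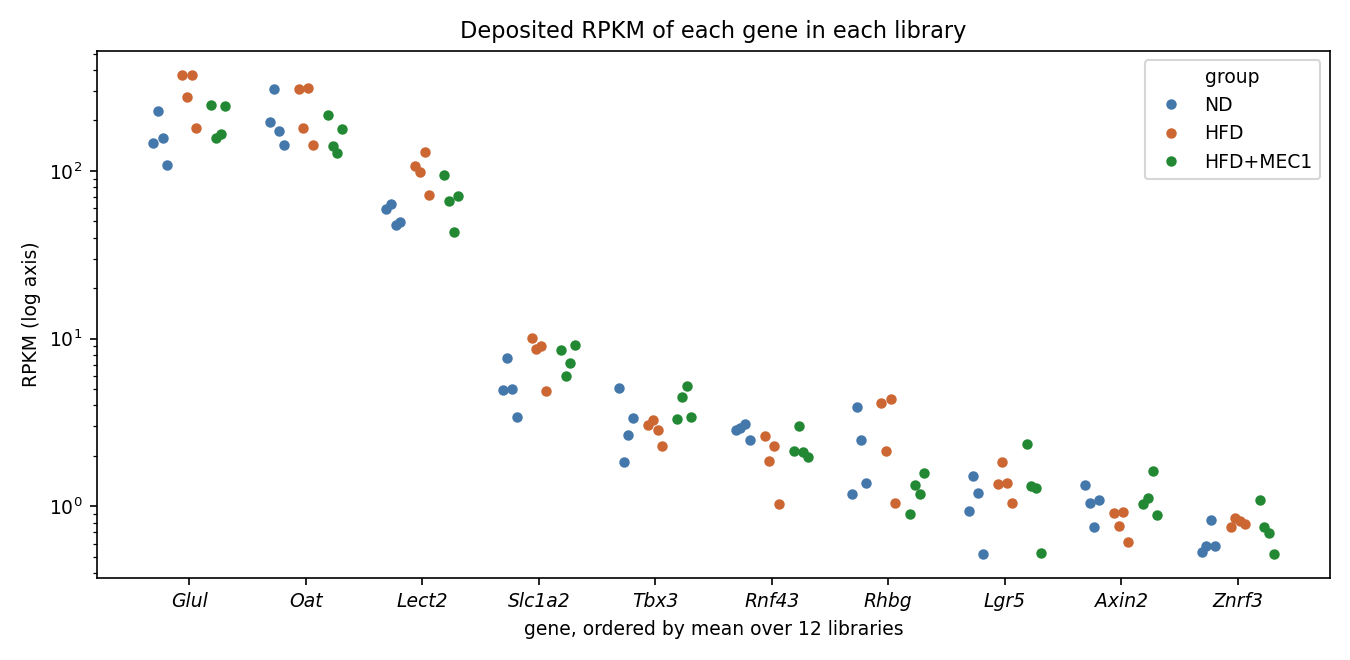
Deposited RPKM of the 10 genes (log axis) in each of the 12 libraries, by group. Oat, Glul and Lect2 lie above the other 7 genes in every group, and Slc1a2 has the highest mean of those 7 in each group.

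In HFD against ND, 1 of the 10 genes passed the test (Lect2, higher) and 9 did not, where 6.3% of all tested genes were called (3.35% higher and 2.95% lower). Calls are at an adjusted p under 0.05 in edgeR's quasi-likelihood test with Benjamini-Hochberg adjustment over all 14172 genes. The 10 log2 differences ran from -0.65 to 0.80, with 7 positive and 3 negative and a median of 0.25, beside -0.0035 over all tested genes. Their median size regardless of sign was 0.42, beside 0.18 over all genes. Of the 10, 4 had an unadjusted p under 0.05 (Glul, Axin2, Rnf43 and Lect2), where 20.7% of all genes did. In only 1, Lect2, did the groups not overlap, where 14.3% of all genes did not.

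In HFD+MEC1 against HFD, edgeR called 0 of the 10 genes, where 0.0282% of all tested genes were called (0.00706% higher and 0.0212% lower). DESeq2 and limma-voom also called 0, and 3 had an unadjusted p under 0.05 (Rhbg, Axin2 and Lect2) where 14.8% of all genes did. The log2 differences ran from -1.17 to 0.56, with 3 positive and 7 negative and a median of -0.07, beside 0.0060 over all genes. Their median size regardless of sign was 0.51, beside 0.16 over all genes. The groups did not overlap in 1 gene, Axin2, where 7.11% of all genes did not. In HFD+MEC1 against ND, edgeR, DESeq2 and limma-voom each called 0 of the 10, none had an unadjusted p under 0.05, and the groups overlapped in all 10. In that comparison 4.54% of all tested genes were called (2.15% higher and 2.4% lower), 19.1% had an unadjusted p under 0.05, and 11% had groups that did not overlap. The HFD libraries enter both the first and the second comparison, so values of the 2 comparisons are set side by side below and not related to each other.

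**Figure D2:**
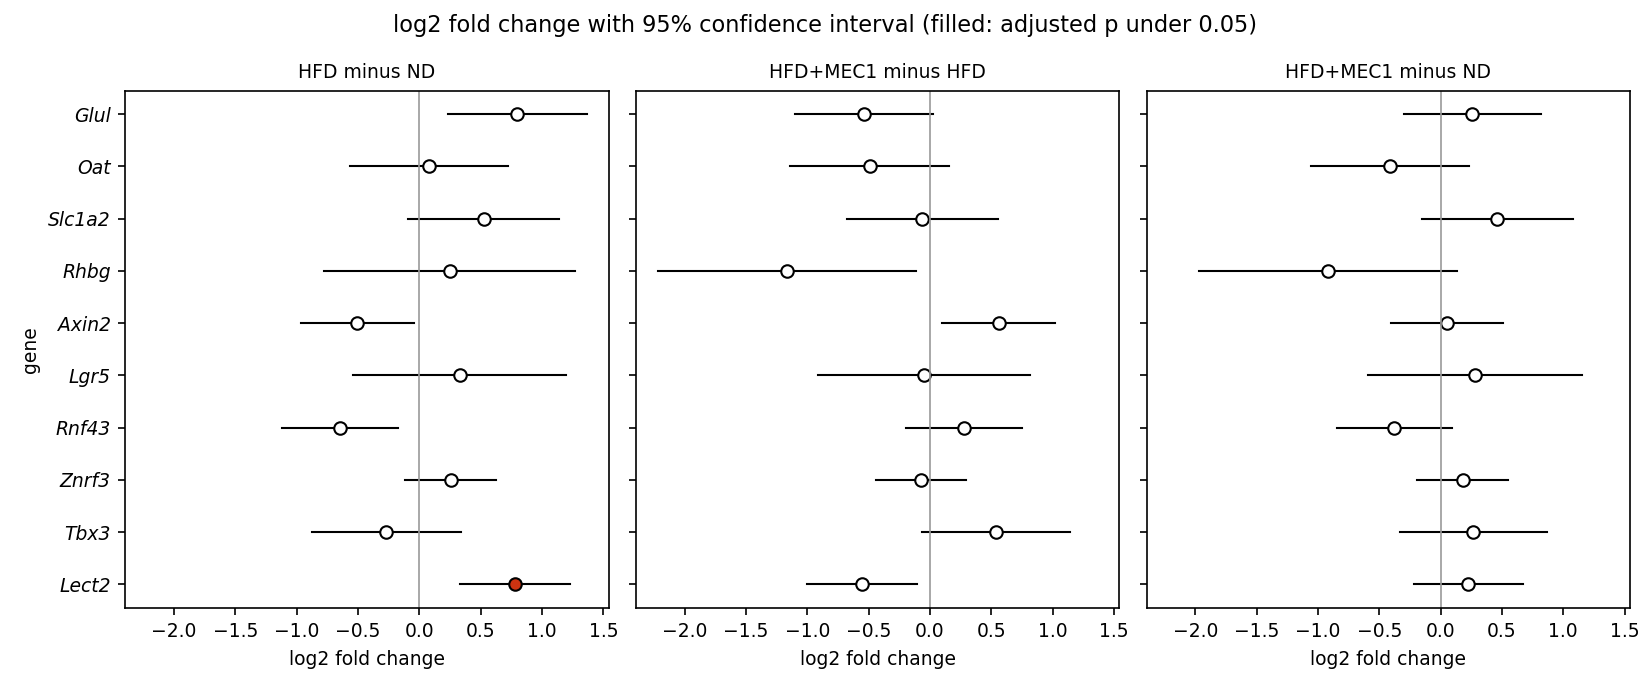
The log2 fold change of each gene with its 95% confidence interval in the 3 comparisons (all 12 libraries in 1 edgeR fit, n = 4 per group). The filled point marks the 1 call, Lect2 in HFD minus ND (0.78). Intervals of the other genes in that panel reach from -1.12 to 1.36.

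The first role among the 10 genes is nitrogen handling. Glul encodes glutamine synthetase, which joins ammonia to glutamate and is the classical marker of the pericentral ring (chromosome 1, 153899944 to 153909723, plus strand). Glul stood at 549, 881, 558 and 396 CPM in ND 1 to 4, at 1297, 984, 1219 and 647 in HFD 1 to 4, and at 803, 565, 595 and 891 in HFD+MEC1 1 to 4. HFD 1, 2 and 3 lay above every ND library, HFD 4 lay among them, and the HFD+MEC1 libraries lay within the ND span or, for HFD+MEC1 4, just above it. The group means were 596 ± 204, 1037 ± 292 and 714 ± 159 CPM (SD, n = 4). The log2 difference of HFD from ND was 0.80 ± 0.26 (SE), or 1.74-fold, with an adjusted p of 0.0936 and a 95% interval from 0.23 to 1.36. Without HFD 4 it was 0.97 (adjusted p = 0.0283) and without ND 2 it was 1.04 (adjusted p = 0.0239), both past the threshold. These were the only 2 of the 12 fits without 1 library that passed. Over the 12 fits the difference ran from 0.64 to 1.04, with adjusted p in edgeR from 0.0239 to 0.232. HFD+MEC1 against HFD gave -0.54 ± 0.26 (adjusted p = 0.357, interval -1.10 to 0.02), and HFD+MEC1 against ND gave 0.26 (interval -0.30 to 0.82).

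Oat encodes ornithine aminotransferase, a mitochondrial enzyme that turns ornithine towards glutamate (chromosome 7, 132557478 to 132576398, minus strand). Oat stood at 566, 924, 472 and 399.6 CPM in ND 1 to 4, at 827, 494, 786 and 392 in HFD and at 539, 388, 350.4 and 501 in HFD+MEC1. All 3 groups overlapped, with ND 2 the highest library and HFD+MEC1 3 the lowest. The means were 590.3 ± 232, 625 ± 215 and 444 ± 89.6 CPM. HFD differed from ND by 0.08 ± 0.29 in log2 (adjusted p = 0.911, interval -0.56 to 0.73), and the sign depended on single libraries. Against HFD, HFD+MEC1 differed by -0.49 ± 0.30 (adjusted p = 0.475, interval -1.14 to 0.15) and from ND by -0.41 (interval -1.05 to 0.24).

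Slc1a2 encodes a plasma membrane glutamate transporter that brings in the substrate of glutamine synthetase (chromosome 2, 102658659 to 102790784, plus strand). Slc1a2 stood at 79.7, 128, 76.5 and 53.2 CPM in ND 1 to 4, at 151, 133, 126 and 75.2 in HFD and at 119, 91.4, 109 and 145 in HFD+MEC1. ND 2 lay among the HFD libraries and HFD 4 lay among the ND libraries. The means were 84.5 ± 31.6, 121 ± 32.4 and 116 ± 22.3 CPM. HFD differed from ND by 0.52 ± 0.28 in log2 (adjusted p = 0.325, interval -0.09 to 1.14). The difference of HFD+MEC1 was -0.06 ± 0.28 from HFD (interval -0.68 to 0.55) and 0.46 from ND (interval -0.16 to 1.08).

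Rhbg encodes an ammonium transporter of the Rh family (chromosome 3, 88242874 to 88254709, minus strand). Rhbg stood at 3.07, 10.5, 6.02 and 3.41 CPM in ND 1 to 4, at 9.78, 5.20, 9.65 and 2.56 in HFD and at 1.99, 3.28, 2.87 and 3.97 in HFD+MEC1. The HFD+MEC1 libraries were the most even and lay at the low end, where ND 1, ND 4 and HFD 4 also lay. The means were 5.74 ± 3.41, 6.80 ± 3.54 and 3.03 ± 0.826 CPM. HFD+MEC1 differed from HFD by -1.17 ± 0.48 in log2, or 2.24-fold lower, the widest difference among the 10 genes. It did not pass (adjusted p = 0.293, interval -2.22 to -0.12), and from ND the difference was -0.92 (adjusted p = 0.333, interval -1.97 to 0.13). HFD against ND gave 0.25 ± 0.47 (interval -0.78 to 1.27).

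The second role is the feedback on the pathway itself. Axin2 encodes a scaffold of the complex that marks beta-catenin for breakdown, and is a general Wnt target in many tissues (chromosome 11, 108920349 to 108950783, plus strand). Axin2 stood at 7.61, 6.20, 4.06 and 6.02 CPM in ND 1 to 4, at 4.80, 4.14, 4.56 and 3.33 in HFD and at 5.09, 6.03, 8.80 and 4.93 in HFD+MEC1. All 4 HFD+MEC1 libraries lay above all 4 HFD libraries, though the nearest, HFD+MEC1 4 and HFD 1, were close, and ND 3 lay among the HFD libraries. The means were 5.97 ± 1.46, 4.21 ± 0.644 and 6.21 ± 1.79 CPM. HFD differed from ND by -0.51 ± 0.22 in log2 (adjusted p = 0.197, interval -0.97 to -0.04). HFD+MEC1 differed from HFD by 0.56 ± 0.22 (adjusted p = 0.240, interval 0.10 to 1.02) and from ND by 0.05 (interval -0.40 to 0.51). The highest Axin2 library was HFD+MEC1 3, the library with the high acute phase genes, and without it the difference from HFD was 0.35 (adjusted p = 0.574).

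Rnf43 and Znrf3 encode membrane ubiquitin ligases that remove Frizzled receptors from the cell surface, and R-spondins relieve this removal. Rnf43 (chromosome 11, 87662722 to 87735539, plus strand) stood at 16.5, 17.5, 17 and 13.9 CPM in ND 1 to 4, at 14.0, 10.2, 11.5 and 5.65 in HFD and at 10.7, 16.6, 11.6 and 11 in HFD+MEC1. HFD lay below ND but for HFD 1, which lay just above ND 4, and HFD+MEC1 2 lay within the ND span while the other 3 lay below it. The means were 16.2 ± 1.61, 10.3 ± 3.49 and 12.5 ± 2.77 CPM. HFD differed from ND by -0.65 ± 0.22 in log2, or 1.57-fold lower (adjusted p = 0.101, interval -1.12 to -0.18), and DESeq2 called it (adjusted p = 0.0406). Without HFD 1 it passed in edgeR, at -0.83 (adjusted p = 0.0437), the only 1 of the 12 fits without 1 library that did. Over those 12 fits the difference ran from -0.83 to -0.45, with adjusted p in edgeR from 0.0437 to 0.190. Of the 10 other alternatives, 2 passed, which were DESeq2 and the replicate block. Between HFD+MEC1 and HFD the difference was 0.27 ± 0.22 (interval -0.20 to 0.75), and from ND it was -0.38 (interval -0.85 to 0.09).

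Znrf3 (chromosome 11, 5276324 to 5444847, minus strand) varied least of the 10, with a highest library 1.84 times its lowest. Znrf3 stood at 5.46, 6.17, 8.02 and 5.79 CPM in ND 1 to 4, at 7.21, 8.26, 7.25 and 7.61 in HFD and at 9.56, 7.29, 6.78 and 5.21 in HFD+MEC1. The HFD libraries were close together, and the HFD+MEC1 libraries held both the highest and the lowest value of all 12. The log2 difference of HFD from ND was 0.25 ± 0.18 (adjusted p = 0.447, interval -0.12 to 0.62), and that of HFD+MEC1 from HFD was -0.07 ± 0.17 (interval -0.44 to 0.30). From ND, HFD+MEC1 differed by 0.18 (interval -0.19 to 0.55).

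Lgr5 encodes an R-spondin receptor that strengthens Wnt signalling and marks the pericentral cells among hepatocytes (chromosome 10, 115450311 to 115587780, minus strand). Lgr5 stood at 5.92, 9.87, 7.23 and 3.19 CPM in ND 1 to 4, at 7.96, 11.1, 7.53 and 6.26 in HFD and at 12.7, 7.96, 7.80 and 3.26 in HFD+MEC1. ND and HFD+MEC1 each held 1 library near 3 CPM, and the groups overlapped throughout. Between HFD and ND the log2 difference was 0.33 ± 0.40 (adjusted p = 0.703, interval -0.54 to 1.20), and between HFD+MEC1 and HFD it was -0.05 ± 0.39 (interval -0.91 to 0.82). From ND, HFD+MEC1 differed by 0.28 (interval -0.59 to 1.15).

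The last role holds a transcription factor and a secreted protein. Tbx3 encodes a T-box factor of the pericentral programme (chromosome 5, 119670669 to 119684724, plus strand). Tbx3 stood at 32.8, 12.4, 16.3 and 21.1 CPM in ND 1 to 4, at 18.5, 20.1, 15.9 and 14.1 in HFD and at 18.4, 27.6, 32 and 21.5 in HFD+MEC1. The ND libraries held both the highest and the lowest value of all 12. HFD differed from ND by -0.27 ± 0.27 in log2 (adjusted p = 0.642, interval -0.87 to 0.34), and without ND 1 it was 0.04. HFD+MEC1 differed from HFD by 0.54 ± 0.27 (adjusted p = 0.394, interval -0.07 to 1.14), and from ND by 0.27 (interval -0.33 to 0.87). As with Axin2, HFD+MEC1 3 was the highest of its group, and without it the difference from HFD was 0.40 (adjusted p = 0.681).

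Lect2 encodes a chemotactic protein that hepatocytes secrete (chromosome 13, 56542464 to 56548502, minus strand). Lect2 stood at 69.3, 77.6, 52.9 and 56.1 CPM in ND 1 to 4, at 116, 111, 131 and 80.3 in HFD and at 95.8, 73.9, 48.7 and 81.0 in HFD+MEC1. Every HFD library lay above every ND library, by a narrow margin at HFD 4 and ND 2, and the HFD+MEC1 libraries overlapped both groups. The means were 64.0 ± 11.6, 109.8 ± 21.4 and 74.9 ± 19.6 CPM. Lect2 rose in HFD by 0.78 ± 0.21 in log2, or 1.72-fold (edgeR, adjusted p = 0.0444, interval 0.33 to 1.23, higher in 4 of 4 libraries). The call lay near the threshold: it was kept in 4 of the 12 fits that left out 1 library, and it was lost without ND 1, 3 or 4, without HFD 1, 2 or 3, and without HFD+MEC1 2 or 4. The difference itself stayed between 0.68 and 0.90 in those fits, with adjusted p from 0.0093 to 0.129. HFD+MEC1 differed from HFD by -0.55 ± 0.21 (adjusted p = 0.239, interval -0.999 to -0.10) and from ND by 0.23 (adjusted p = 0.613, interval -0.22 to 0.67). The lowest Lect2 library was HFD+MEC1 3, and without it the difference from HFD was -0.39 (adjusted p = 0.443).

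**Figure D3:**
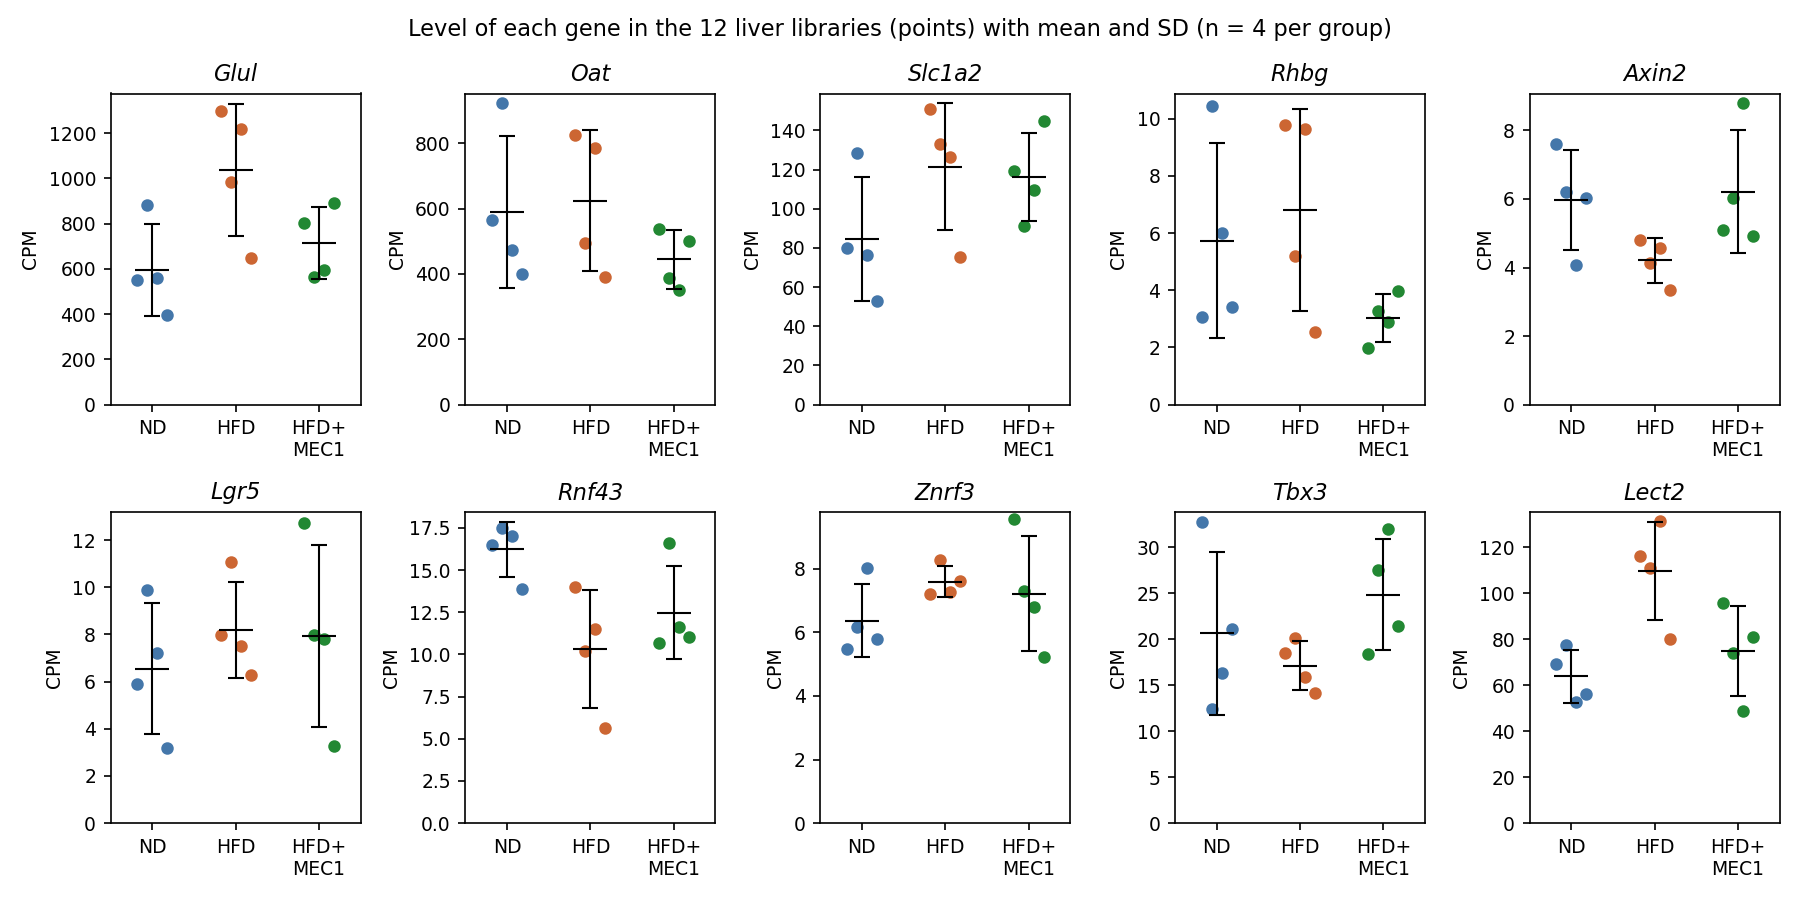
CPM of each gene in the 12 libraries (points, replicates 1 to 4 from left to right in each group) with the group mean and SD (n = 4). Lect2 in HFD (80.3 to 131) lies above ND (52.9 to 77.6), and Axin2 in HFD+MEC1 (4.93 to 8.80) lies above HFD (3.33 to 4.80), while the other genes overlap between these groups.

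Single libraries stood low or high across many of the 10 genes at once. HFD 4 was the lowest HFD library in 9 of the 10, all but Znrf3, and it was also the highest HFD library in the acute phase genes (median 0.05 above the ND mean in log2, against -0.86, -0.60 and -0.62 in HFD 1 to 3). HFD 4 was also the lowest library in the 9 stellate and fibroblast markers, which summed to 149.6 CPM there against 306 to 374 in HFD 1 to 3 (median -0.98 from the ND mean in log2, against 0.20, 0.07 and -0.05). The part of either shift in the results was not tested. ND 2 was the highest ND library in 7 genes, and ND 4 the lowest in 5. HFD 1 was the highest HFD library in 6. The group differences were recomputed with each of these libraries left out.

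To ask which of the genes moved together within groups, each library's log2 CPM was taken as its deviation from its group mean, and the 45 pairs of genes were correlated over the 12 libraries. P-values came from an exact test over all 13824 permutations of 1 gene's libraries within each group, adjusted over the 45 pairs. Of the 45 pairs, 4 passed. Their largest unadjusted p was 0.0031. This cut was taken from the pairs that passed, so their share of 4 of the 45 (8.89%) was fixed by it and is no test. Among the pairs of 1 of the 10 genes with any other tested gene, 0.586% reached it. That share was 0.924% of genes for Glul, 1.57% for Oat, 0.607% for Slc1a2 and 1.35% for Lect2, or 131, 223, 86 and 191 genes, so a p this small was not particular to the pairs below. Glul and Slc1a2 had a Pearson r of 0.96 (exact permutation p = 0.00058, adjusted 0.0130) and a Spearman rho of 0.96 (p = 0.00058, adjusted 0.0146). Glul and Oat had r = 0.94 (exact permutation p = 0.0010, adjusted 0.0152) and rho = 0.90 (p = 0.0012, adjusted 0.0184). Oat and Slc1a2 had r = 0.86 (exact permutation p = 0.0031, adjusted 0.0350), with rho = 0.82 (p = 0.0046), which did not pass (adjusted 0.0521). The other pair that passed was Oat and Lect2, with r = 0.80 (exact permutation p = 0.00036, adjusted 0.0130) and rho = 0.84 (p = 0.00065, adjusted 0.0146). Leaving out the 2 libraries farthest from the median of the first gene, which are ND 2 with HFD 4 for Glul and ND 2 with HFD 1 for Oat, gave r of 0.92, 0.90, 0.74 and 0.84 for these pairs in the order named.

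The remaining 41 pairs did not pass. Rhbg, the remaining nitrogen gene, correlated with Glul at r = 0.78 (exact permutation, adjusted p = 0.0865), and r fell to 0.57 without ND 2 and HFD 4. Glul and Lect2 had r = 0.74 (exact permutation, adjusted p = 0.0846). None of the feedback genes passed with Glul: r was 0.05 for Axin2, 0.51 for Rnf43, -0.08 for Znrf3 and 0.32 for Lgr5, and adjusted p was 0.416 or more in these exact permutation tests. Among themselves, Lgr5 with Znrf3 had r = 0.74 (adjusted p = 0.178) and Axin2 with Rnf43 r = 0.36 (adjusted p = 0.509). Axin2 and Tbx3 had r = 0.65 (adjusted p = 0.240).

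**Figure D4:**
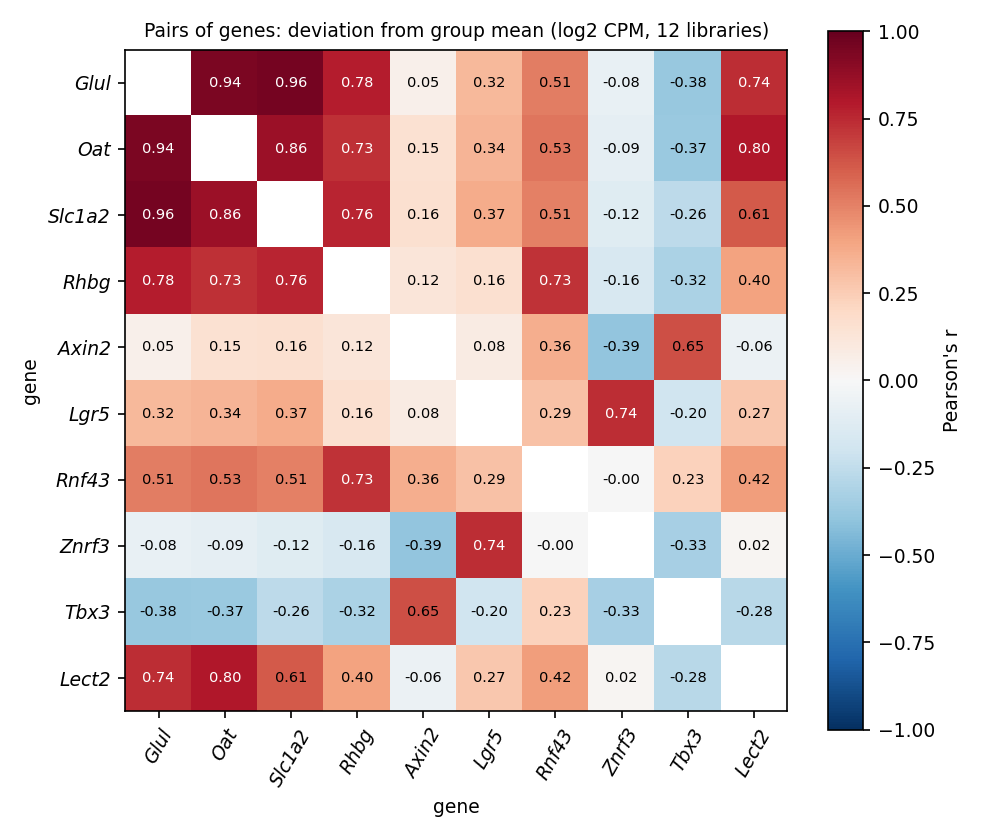
Pearson's r of the deviation from the group mean (log2 CPM, 12 libraries) for each pair of the 10 genes. Glul, Oat and Slc1a2 form a block of high values (0.86 to 0.96), while Axin2 lies near 0 with Glul (0.05).

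Over the 12 libraries without regard to group, the tested genes outside the 10 most like Glul were Mir8114 (Pearson r of log2 CPM 0.97), Letm1 (0.95) and Mbnl3 (0.95). Mir8114 overlaps an exon of Glul on the same strand, so its counts cannot be told apart from those of Glul. Slc1a2 came at rank 21 of all genes (0.89), Lect2 at rank 55 (0.86) and Oat at rank 434 (0.73). The genes most like Axin2 were Acp2 (0.89), Usp40 (0.89) and Vps37b (0.86). Tbx3 came at rank 134 for Axin2 (0.70) and Rnf43 at rank 730 (0.54). These values include the group differences and are descriptions of 12 libraries.

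Upstream of the 10 genes are the ligands. Of 13 listed genes for Wnt ligands, R-spondins and their secretion, 10 were tested, and in HFD 1 fell, 0 rose and 9 did not pass, where 6.3% of all tested genes were called. In this comparison DESeq2 called 2 of the 10 and limma-voom 1. An unadjusted p under 0.05 was found for 4 of them in edgeR, where 20.7% of all tested genes had one. The median log2 difference was -0.55 beside -0.0035 over all genes, and by library the median of the 10 genes from the ND mean was -0.09 and -0.05 in HFD 1 and 2 and -0.59 and -0.67 in HFD 3 and 4. The edgeR call was Wnt5a, a ligand best known for signalling without beta-catenin, from 3.31 ± 0.567 CPM in ND to 1.64 ± 0.537 in HFD (-1.01 ± 0.29, edgeR, adjusted p = 0.0462). Wnt5a was 1.47 ± 0.524 CPM in HFD+MEC1, lower than in ND by 1.17 in log2 (edgeR, adjusted p = 0.0300). The call in HFD was lost in 12 of 22 alternative fits, among them those without each single ND library and without HFD 1, 3 or 4 or HFD+MEC1 2. The call in HFD+MEC1 was lost in 7 of 22, among them those without ND 1 or 4 or HFD+MEC1 3 or 4. Rspo2 and Rspo4 had 0 counts in every library. Rspo3, the R-spondin of the central vein, was the highest of the list at 6.72 ± 0.732, 7.87 ± 1.28 and 6.30 ± 2.15 CPM in ND, HFD and HFD+MEC1, with an adjusted p of 0.498 or more in each comparison. Wnt2 and Wnt9b, the central vein ligands, were picked out after their values were seen: Wnt2 stood at 3.26 ± 1.25, 4.77 ± 1.16 and 3.40 ± 0.757 CPM and Wnt9b at 1.82 ± 0.824, 1.55 ± 0.409 and 1.54 ± 0.604 CPM, and neither passed in any comparison. None of the 10 tested ligand genes was called by edgeR (0), DESeq2 (0) or limma-voom (0) in HFD+MEC1 against HFD, and 1 had an unadjusted p under 0.05, where 14.8% of all tested genes did.

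Among the receptors, 13 of 15 listed genes were tested, and in HFD 1 fell, 0 rose and 12 did not pass, near the 6.3% called over all tested genes. Of the 13 differences, 10 were negative (median -0.38), where 50.6% of all genes were. Fzd7, a Frizzled receptor, fell from 30.2 ± 5.27 CPM in ND to 14.5 ± 0.664 in HFD, by 1.06 ± 0.14 in log2 (edgeR, adjusted p = 0.00053), and the groups did not overlap. Fzd7 stood at 17.6 ± 3.51 CPM in HFD+MEC1, which was lower than in ND by 0.78 (edgeR, adjusted p = 0.0050) and differed from HFD by 0.28 ± 0.14 (adjusted p = 0.362). Both calls of Fzd7 were kept in all 22 alternative fits. The abundant co-receptor Lrp5 had 91.6 ± 15.8, 101 ± 14.4 and 114 ± 4.94 CPM in ND, HFD and HFD+MEC1, and Lrp6 had 68.9 ± 4.43, 70.0 ± 4.28 and 78.0 ± 13.9, and neither passed. In HFD+MEC1 against HFD, which shares the HFD libraries, 1 of the 13 differences was negative and 12 were positive (median 0.25), where 48.9% of all genes were negative. Of the 13, edgeR, DESeq2 and limma-voom called 0, and 3 had an unadjusted p under 0.05, where 14.8% of all genes did.

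Of the 19 listed inhibitors and corepressors, 12 were tested. In HFD against ND, edgeR, DESeq2 and limma-voom called 0 of them, with 2 at an unadjusted p under 0.05 and a median of -0.22, and in HFD+MEC1 against HFD they called 0, with 1 at an unadjusted p under 0.05 and a median of 0.06. Over all tested genes, 20.7% in HFD against ND and 14.8% in HFD+MEC1 against HFD had an unadjusted p under 0.05. Notum, a secreted enzyme that inactivates Wnt ligands, stood at 23.6 ± 3.75, 24.5 ± 4.02 and 25.4 ± 4.71 CPM in ND, HFD and HFD+MEC1. Dkk1 had 0 counts in every library. Of 25 genes for the signalling machinery inside the cell, 23 were tested, and in HFD against ND edgeR and limma-voom called 0 and DESeq2 called 1, with 3 at an unadjusted p under 0.05 and a median of -0.05. Ctnnb1, which encodes beta-catenin, stood at 247 ± 8.06, 235 ± 7.66 and 252 ± 19.2 CPM and did not pass (HFD against ND -0.07 ± 0.08 in log2, interval -0.25 to 0.10). For HFD+MEC1 against HFD, edgeR, DESeq2 and limma-voom called 0 of the 23, with 2 at an unadjusted p under 0.05. Ctnnbip1, an inhibitor of the binding of beta-catenin to TCF, was lower in HFD+MEC1 than in ND by 0.49 in log2 (edgeR, adjusted p = 0.0294), and that call was lost in 11 of 22 alternative fits, among them those without ND 2, 3 or 4 or HFD+MEC1 1, 2 or 4.

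Other genes of the pericentral zone, which need not answer to Wnt, moved in both directions in HFD. Of 24 tested, 3 rose, 3 fell and 18 did not pass (median -0.03), where 3.35% of all tested genes were called higher and 2.95% lower. Aldh3a2, a fatty aldehyde dehydrogenase, rose from 200.4 ± 29.2 CPM in ND to 731 ± 170 in HFD (1.87 ± 0.32 in log2, edgeR, adjusted p = 0.0073). Aldh1a1, a retinaldehyde dehydrogenase, rose by 0.80 ± 0.16 (edgeR, adjusted p = 0.0072). Cyp1a2, a xenobiotic cytochrome P450, fell from 510.4 ± 59.98 to 222 ± 34.7 CPM (-1.20 ± 0.21, edgeR, adjusted p = 0.0052), and Por, the electron donor of these enzymes, fell by 0.72 ± 0.14 (edgeR, adjusted p = 0.0064). Prodh, proline dehydrogenase, fell by 0.71 ± 0.19 (edgeR, adjusted p = 0.0469), a call lost in 14 of 22 alternative fits and kept only without HFD 1 or HFD+MEC1 4 among those that left out 1 library. Cyp2e1, the most abundant of the list, stood at 3601 ± 396, 4651 ± 648 and 4411 ± 1095 CPM in ND, HFD and HFD+MEC1 and did not pass.

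In HFD+MEC1 against HFD, edgeR and limma-voom called 0 of these 24 pericentral genes (median -0.22). DESeq2 called 3 of them and 374 of all genes, and 9 had an unadjusted p under 0.05, where 14.8% of all tested genes did. Without HFD 4 edgeR called 2 of them and 72 of all genes, and without HFD+MEC1 1 it called 2 of them and 460 of all genes. Against ND, 3 of the 24 fell in HFD+MEC1 and 0 rose, where 2.4% of all tested genes were called lower. The 3 were Cyp1a2 by 1.16, Prodh by 1.13 and Gstm1, a glutathione transferase, by 0.84 in log2 (edgeR, adjusted p = 0.0078, 0.0064 and 0.0241). Without HFD+MEC1 1 the count was 5, and the Gstm1 call was lost in 9 of 22 alternative fits, among them those without ND 1 or 2 or HFD+MEC1 2, 3 or 4.

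The periportal genes are expressed at the opposite end of the lobule. Of 20 tested, 9 fell in HFD, 0 rose and 11 did not pass, where 2.95% of all tested genes were called lower. Of the 20 differences, 17 were negative and 3 positive, with a median of -0.70 beside -0.0035 over all genes. Hal, which breaks down histidine, fell from 382 ± 25.1 CPM in ND to 183 ± 33.1 in HFD (-1.06 ± 0.13, edgeR, adjusted p = 0.00023). Gls2, the liver glutaminase that releases ammonia from glutamine, fell from 329.5 ± 9.52 to 185 ± 34.7 CPM (-0.84 ± 0.11, edgeR, adjusted p = 0.00051). Cyp2f2 fell by 1.10 ± 0.15 and Cps1, the entry enzyme of the urea cycle, by 1.18 ± 0.22 (edgeR, adjusted p = 0.00054 and 0.0050). Against ND, 11 fell in HFD+MEC1 and 0 rose, where 2.4% of all tested genes were called lower. Of the differences, 18 were negative and 2 positive (median -0.91). The calls were led by Gls2 at 144 ± 6.52 CPM (-1.19 ± 0.11, edgeR, adjusted p = 3.32e-05). For HFD+MEC1 against HFD, edgeR and limma-voom called 0 of the 20 (median -0.09). DESeq2 called 1 of them and 374 of all genes, and 4 had an unadjusted p under 0.05, where 14.8% of all tested genes did.

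Around glutamine itself, 17 genes of glutamine, glutamate and ammonia handling were listed and 16 tested. In HFD 3 fell and 0 rose, where 2.95% of all tested genes were called lower. The 3 were Gls2 and Prodh, with the values given for their lists, and Slc38a3, a glutamine transporter, from 756 ± 56.1 to 494 ± 107 CPM (-0.61 ± 0.15, edgeR, adjusted p = 0.0208). The Slc38a3 call was lost without ND 3 or 4 or HFD 2 or 3, and the count was then 1. Against ND, 3 of the 16 fell in HFD+MEC1 and 0 rose, where 2.4% of all tested genes were called lower. They were Gls2, Prodh and Gpt, alanine aminotransferase, the last by 0.73 in log2 (edgeR, adjusted p = 0.0083). Between HFD+MEC1 and HFD, edgeR, DESeq2 and limma-voom called 0 of the 16, with 4 at an unadjusted p under 0.05, where 14.8% of all tested genes were. In HFD against ND, the positive difference of Glul that did not pass stood beside a called fall of Gls2, the enzyme of the opposing reaction. The difference between the changes of Glul and Gls2 was not tested.

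**Figure D5:**
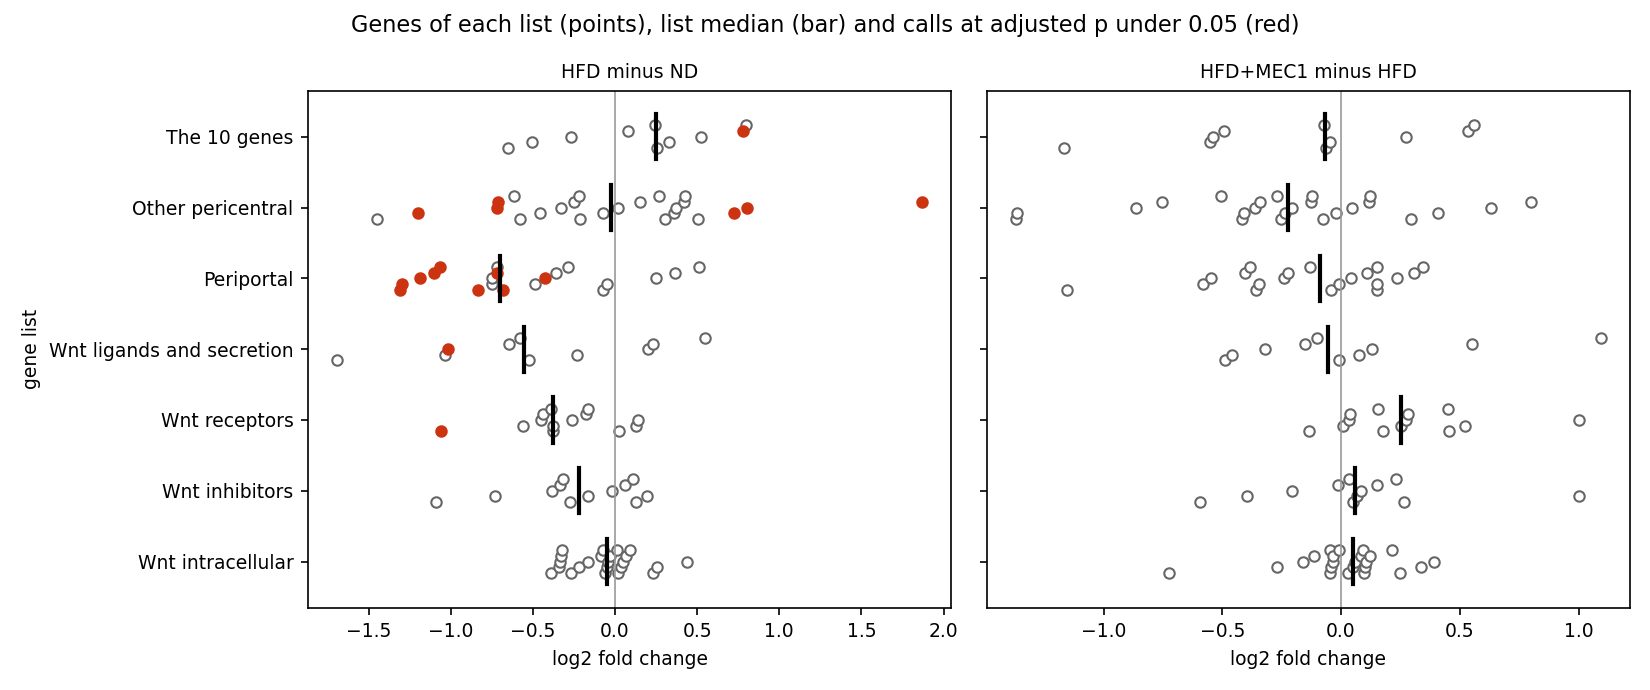
The log2 fold change of each tested gene (points) by list in HFD minus ND and HFD+MEC1 minus HFD, with the 10 genes in the first row. The periportal list lies to the left in HFD minus ND (median -0.70), and the 10 genes spread to both sides in both panels.

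The low genes rest on fewer counts: Rhbg had 94 to 487 counts per library, Axin2 151 to 343 and Lgr5 142 to 600, against 19133 to 61539 for Glul. A count of 3, taken as the limit of detection, corresponds to 0.0590 to 0.0770 CPM. For 4 of the genes, a gene of the other strand covers part of the exons (3.49% in Glul, 1.44% in Slc1a2, 3.80% in Axin2 and 1.74% in Tbx3), and because the use of strand in counting is not stated, reads of the 2 genes cannot be told apart there. Rhbg shares its strand and exons with the annotated gene Gm38392, with the same limit.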

How the data were processed

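Liver RNA sequencing of 12 samples in 3 groups of 4 was used. For each sample the authors deposited raw counts by gene symbol as whole numbers, and for all samples together a table of RPKM, per the file headers. The submitters' processing notes name STAR 2.7.10a and mm10. The counting tool, annotation and use of strand are not given in the sources used here. Between 70.1% and 74.7% of low counts were even in each library, so counts may be of read ends. Columns of RPKM that match no sample (12) were not used.

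Groups came from the sample titles. Counts were tested with edgeR 4.0.16 (R 4.3.3; quasi-likelihood F-test, robust, two-sided, TMM scaling, filterByExpr, no batch or block term) in 1 fit of all 12 samples, which share 1 estimate of the spread (common biological coefficient of variation 0.200). The 14172 genes that passed the filter held 99.98% of the counts. P-values were adjusted by Benjamini-Hochberg over those genes and called under 0.05. CPM are TMM-scaled. Alternatives were DESeq2 1.42.0, limma-voom and limma 3.58.1 on log2(RPKM + 0.1) or log2(RPKM + 1) (a scale that understates low genes), other scalings and filters, only the 2 groups compared, a replicate block and leaving out each sample. Pairs of genes were tested over the samples in Python 3.11.15; the share of other tested genes reaching the same p with each of the 10 was added after the results were seen.

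The 10 genes and all lists were chosen with earlier results of these data known. The text names all 10, and from each list the called genes (up to 4 per direction and comparison) or else up to 3 of the highest mean CPM, and for Glul and Axin2 the 3 genes most like them. The values of 1 called gene are not reported here. Coordinates are 1-based, from GENCODE M21, and promoter windows are from RefSeq on GRCm38.p6.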

Additional observations from a re-analysis of the deposited data

Results flagged for a closer look

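In 81 sets of 4 samples (27 genes in 3 groups), the highest or lowest sample was compared with the nearest of the others by Dixon's ratio at its 95% critical value. The sample lay apart in 4 sets, where chance gives about 1 in 20. Among the 10 genes this was 1 of 30 sets: Rnf43 in HFD+MEC1 2, at 16.6 CPM, while the other 3 libraries of that group lay between 10.7 and 11.6 CPM. The others were Aldh3a2 in ND 4 at 157 CPM, below the other ND libraries, and Prodh in ND 2 at 218 CPM and in HFD 1 at 149.9 CPM, each above the rest of its group.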

How the results depend on the processing

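Over the 22 alternatives for each of the 10 genes in 3 comparisons, 629 of the values kept their direction and their side of the threshold, 11 lost a call, 6 gained one and 14 changed sign. In HFD against ND, the count of called genes among the 10 was 1 in the fit reported, 2 with library totals (Lect2 and Glul), 2 with DESeq2 and 2 with the replicate block (Lect2 and Rnf43), and 0 with no low-count filter, with limma-voom and with log2(RPKM + 0.1) without a filter. Leaving out 1 library gave 0 to 2, with 0 in 7 of 12 fits. In the comparisons with HFD+MEC1 the count was 0 in every alternative run. Of the values that changed sign, none was called in the fit reported or in the alternative: Slc1a2 in HFD+MEC1 against HFD was 0.0026 with the replicate block, and leaving out 1 library gave -0.083 to 0.38 for Oat in HFD against ND, -0.45 to 0.042 for Tbx3 in HFD against ND, -0.23 to 0.060 for Slc1a2 in HFD+MEC1 against HFD, -0.37 to 0.21 for Lgr5 in HFD+MEC1 against HFD, -0.24 to 0.059 for Znrf3 in HFD+MEC1 against HFD, -0.16 to 0.19 for Axin2 in HFD+MEC1 against ND, -0.044 to 0.55 for Lgr5 in HFD+MEC1 against ND. The cause was not tested.

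Over all genes, calls in HFD against ND went from 893 to 1373 with DESeq2 and to 423 to 1109 without 1 library, and their split from 475 higher and 418 lower to 906 and 233 with library totals, which shift the median of all genes to 0.12, and to 642 and 242 with log2(RPKM + 0.1). Calls in HFD+MEC1 against HFD went from 4 to 374 with DESeq2, 21 with the replicate block, 17 without a filter, 2 with limma-voom or only the 2 groups, 0 with library totals, 0 or 1 with RPKM, and 0 to 460 without 1 library. Calls in HFD+MEC1 against ND went from 644 to 1142 with DESeq2, 425 with unfiltered RPKM and 334 to 678 without 1 library. The periportal count of 9 in HFD against ND ran from 6 to 11 without 1 library, and the count of 11 in HFD+MEC1 against ND from 9 to 12; these list counts were recomputed after the data were seen.

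No pairing by replicate number was seen: same-numbered deviations correlated between -0.0942 and 0.133, over 0.1 in 1 of 12 pairs, and 4 of 12 libraries were closest to their own number. With 4 libraries per group, this check cannot show that the samples are unpaired. With the replicate block, calls over all genes went from 893 to 896 in HFD against ND, from 4 to 21 in HFD+MEC1 against HFD, and from 644 to 716 in HFD+MEC1 against ND. Scaling by library totals or DESeq2 size factors left all mean levels of the 10 genes within 1 SD, and the RPKM alternative for these levels was not run, being another unit. In HFD against ND the 95% intervals of Rhbg (-0.78 to 1.27) and Lgr5 (-0.54 to 1.20) were the widest of the 10, and that of Znrf3 (-0.12 to 0.62), the gene with the lowest RPKM in ND, was the narrowest.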
